A study of Mus musculus with 6 samples.

Results

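Conventional CD8-negative T cells were taken from a pool of dissociated mouse tumors as the cells that carried T cell receptor or CD3 transcripts and lacked a few transcripts that mark CD8, regulatory T and NK cells. A cell was a member when it had at least 500 genes, under 15% mitochondrial counts and at most 8000 unique molecular identifiers (UMIs, 1 per captured transcript). It had to have at least 2 of the 5 genes Cd3e, Cd3d, Cd3g, Trac and Trbc2, and no UMI of Cd8a, Cd8b1, Foxp3, Ncr1 or the C1q genes. A cell with both Ctla4 and Il2ra was left out. The rule found 216 members among 13768 cells that passed the filters on genes and mitochondrial counts, of 14818 cells in the matrix. All of these genes chose the members, so their levels are descriptions only.

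Male mice carried tumors of the mouse head and neck squamous carcinoma line MOC-2 under the skin, and the tumors were taken 24 hours after an injection into them. The labels list 3 vehicle tumors and 3 treated tumors, and the mouse strain and age are not given in the sources used here. Dead cells were sorted out by dye, the tumors were tagged and pooled, and transcripts were counted at their 3' ends. The protocol text names reagents for the study as a whole: the adenosine receptor agonist 2-C1-IB-MECA, copper(II) diethyldithiocarbamate, a cyclic dinucleotide, 5’ppp-dsRNA with Lyovec, the Toll-like receptor agonist R848, the inhibitors galunisertib, epcadostat, Nw-Hydroxy-nor-L-arginine and L-NMMA, clodronate, and 4-1BB ligand. It does not say which of them the treated tumors of this experiment received, and vehicle and treated tumors share the cell line, the sex of the mice and the time point.

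The barcodes of the cells carry 6 different suffixes, and the cells with 1 of them are called a barcode set, numbered 1 to 6. The labels do not say which suffix or tag belongs to which tumor, so treated and vehicle tumors could not be compared and the pool is 1 sample. No test was run. Levels are the UMIs of a gene summed over a class of cells and scaled to all UMIs of that class, in the usual unit CPM, and values in brackets are exact 95% intervals (Poisson for CPM and ratios of CPM, Clopper-Pearson for shares) that cover counting error only. A gene is called higher or lower at 2-fold or more, among genes with at least 30 UMIs over both classes. This is a rule of size and not a test, and genes near 30 UMIs can pass it through counting error. A class with under 3 UMIs of a gene was set at 3 UMIs, so a fold against a class at 0 is written as at least the ratio to that floor.

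T cells that lack CD8 include CD4 helper cells, gamma-delta T cells and T cells with an innate-like programme. Helper cells read antigen on MHC class II and specialise: type 1 cells make interferon-gamma, type 2 cells make IL-5 and IL-13 under GATA3 and respond to IL-33 through ST2, and type 3 cells make IL-17. Innate-like T cells carry a T cell receptor together with NK cell receptors, the signalling adaptor FcRγ and cytotoxic granules, and respond quickly in tissues.

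The members made up 1.57% of the filtered cells (1.37 to 1.79). Together they held 488947 UMIs, with 731 to 7665 per cell, a median of 1750.5 UMIs and a median of 936 genes. A Cd4 UMI was in 39 members, 18.1% (13.2 to 23.8), which are called Cd4-positive. Trdc or Tcrg-C1, the constant regions of the delta and a gamma chain, were in 27 members, 12.5% (8.40 to 17.7), none of them with a Cd4 UMI. The remaining 150 members, 69.4% (62.8 to 75.5), had none of these transcripts and are called Cd4-negative.

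The members were spread unevenly over the barcode sets. They numbered 7, 44, 41, 22, 32 and 70 in sets 1 to 6. As shares of the filtered cells of each set these are 0.242%, 1.99%, 4.93%, 0.582%, 1.18% and 5.19%. Sets 3 and 6 were highest and their intervals overlap (3.56 to 6.63 and 4.07 to 6.51), and the interval of set 1 (0.0975 to 0.499) overlaps only that of set 4 (0.365 to 0.879). Cd4-positive members numbered 1, 8, 10, 5, 7 and 8, and gamma-delta members 0, 2, 6, 2, 2 and 15. Set 6 therefore held 15 of the 27 gamma-delta members, and without it their share of the members was 8.22% and the members' share of all cells 1.18%.

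**Figure D1:**
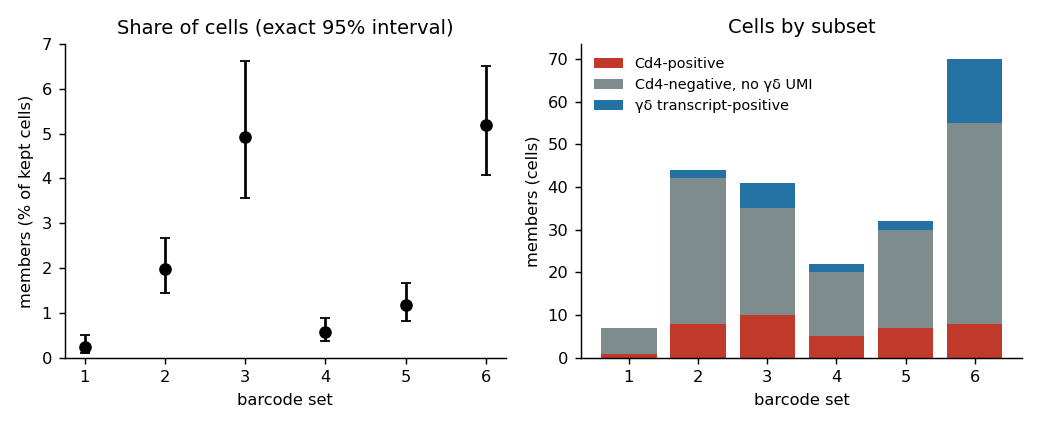
Members in each barcode set, as a percent of the filtered cells of the set with exact 95% intervals (left) and as numbers of cells stacked by subset (right). Sets 3 and 6 have the highest shares, 4.93% and 5.19%, and set 6 has 15 of the 27 gamma-delta members.

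No barcode sequence was shared between sets. The tag with the most counts over a set was the largest tag in 216 of 216 members. It held at least 90% of a member's tag counts in only 36 of them. A Y-linked transcript, which the male host can supply, was in 107 members, and 200 had no Xist UMI. Of the 5 T cell genes of the rule, 69 members had 2, 71 had 3, 55 had 4 and 21 had 5. Just outside the rule, 141 cells met every other condition with 1 T cell gene, and 24 cells met every other condition with more than 8000 UMIs, the lowest at 8150.

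The marker genes Cd3e, Trac and Cd28 were present in the Cd4-positive members at 399, 499 and 873 CPM and in the Cd4-negative members at 366, 428 and 607 CPM. In 8031 cells with Xist and no Ptprc UMI, which are not leukocytes by that measure and serve as background, they stood at 0.116, 2.06 and 0.309 CPM. Cd4 itself was thinly sampled. Among 33 cells of the same pool with a Foxp3 UMI, a marker of regulatory T cells of the CD4 lineage, a Cd4 UMI was in 3. After each cell was thinned to 1000 UMIs, which left out 24 shallower members, 9.90% of 192 members had a Cd4 UMI, against 0.0375% of 8006 background cells. The Cd4-negative members are thus cells in which no Cd4 transcript was captured, which is not a measure of the protein.

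Type 2 transcripts were higher in the Cd4-positive members, of which 17 of 39 had at least 3 of 5 such genes. Of the 150 Cd4-negative members 88 had at least 3 of 6 genes of innate-like and cytotoxic lymphocytes. So did 70 of 90 T cells with a Cd8a or Cd8b1 UMI. Both gene sets were picked with their levels in these members in view. Whether the Cd4-negative members are conventional T cells was not tested. Of 2354 genes with enough UMIs, 7.56% were higher and 13.2% lower in Cd4-positive members, with a median difference of -0.11 on the log2 scale. Among the genes of a type 2 list (14 genes known from type 2 helper cells and group 2 innate lymphoid cells), 5 had enough UMIs and all 5 were higher: Il5, Il13, Areg, Il1rl1 and Gata3, with a median of 2.99 on the log2 scale. All 10 measured genes of a cytotoxicity list and all 6 of an NK cell and ILC1 list were lower, with medians of -1.99 and -2.27.

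**Figure D2:**
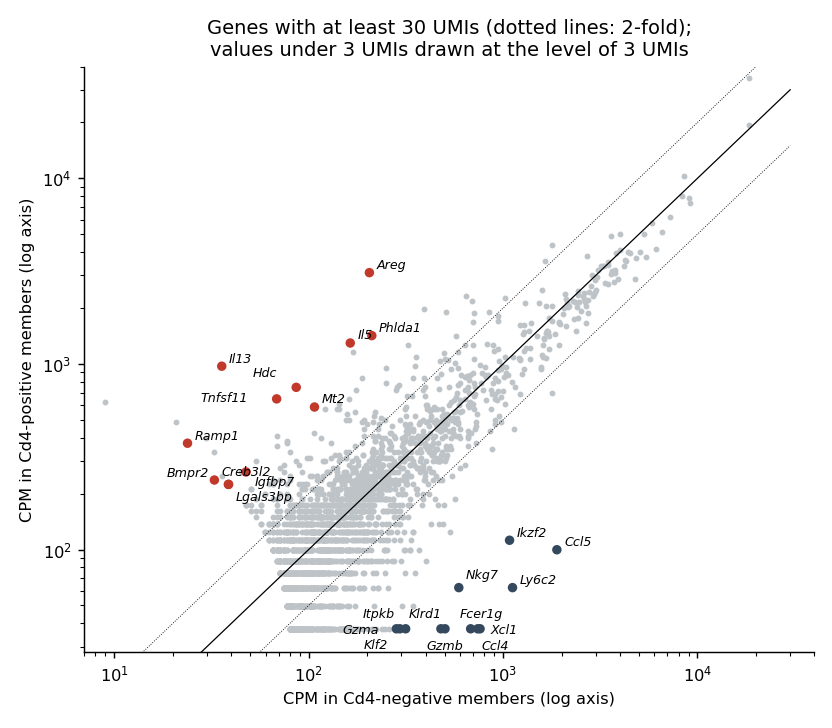
CPM of each gene in Cd4-positive members against Cd4-negative members on log axes, with the 12 genes of largest fold in each direction, among those on the same side in at least 5 barcode sets, named. Genes under 3 UMIs are drawn at 3 UMIs. Areg, Il5 and Il13 stand above the upper 2-fold line, and Ccl5, Ly6c2, Ikzf2 and Fcer1g below the lower one.

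Il5 (chromosome 11, 53720794 to 53725106, mm10), the growth factor of eosinophils, was at 1296 CPM (1059 to 1571) in Cd4-positive members and at 164 CPM (123 to 213) in Cd4-negative members. This is 7.92-fold (5.66 to 11.2). The 104 UMIs lay in 13 of 39 cells, with 29 in the highest cell, and the level without that cell was 966 CPM. By barcode set the Cd4-positive level was 0, 2443, 1505, 1728, 584 and 119 CPM. It was above the Cd4-negative level of the same set in the 5 sets with an Il5 UMI, and set 1 had a single Cd4-positive member. In the Cd4-negative members 31 of 55 Il5 UMIs were in 1 cell. On the log2 scale the difference was 2.99, and 3.74 without set 2.

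Il13 (chromosome 11, 53631324 to 53634702), which acts on epithelium and macrophages, differed more. It was at 972 CPM (768 to 1213) in Cd4-positive and 35.7 CPM (18.4 to 62.3) in Cd4-negative members, 27.2-fold (14.7 to 55.0). The Cd4-positive levels by set were 0, 624, 1405, 2135, 511 and 596 CPM, and each of the 5 sets with an Il13 UMI had the transcript in 2 to 4 of its Cd4-positive cells. The difference of 4.77 on the log2 scale was 6.66 without set 5, which held 9 of the 12 Il13 UMIs of Cd4-negative members, and 1.95 when only Foxp3 had to be 0. Il4, the classical helper cytokine of type 2 responses, gave 3 UMIs in Cd4-positive members and 1 in Cd4-negative ones, and Il9 and Il17rb gave none in any member.

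Areg (chromosome 5, 91139599 to 91148432), which encodes amphiregulin, a ligand of the EGF receptor, had 3104 CPM (2730.1 to 3514) in Cd4-positive and 205 CPM (160 to 260) in Cd4-negative members. The ratio was 15.1-fold (11.5 to 20.0). It was higher in Cd4-positive members in all 6 sets, where their levels ran from 596 to 5971 CPM with a median of 3228. A single cell in set 3 held 82 of the 249 Areg UMIs along with 29 of Il5 and 27 of Il13, and without it Areg stood at 2152 CPM. On the log2 scale the Areg difference was 3.92, but 5.12 without set 2, 3.34 without set 3, and 1.00 with Foxp3, Ctla4 and Il2ra all at 0.

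Il1rl1 (chromosome 1, 40429570 to 40465415), the IL-33 receptor ST2, was at 1271 CPM (1037 to 1543) in Cd4-positive and 324 CPM (266 to 391) in Cd4-negative members, 3.92-fold (2.96 to 5.18). Gata3 (chromosome 2, 9857078 to 9890034), the type 2 lineage factor, was at 835 CPM (647 to 1061) and 187 CPM (144.0 to 240), 4.46-fold (3.11 to 6.39). Each was in 24 of the 39 Cd4-positive members. Gata3 was higher in Cd4-positive members in sets 2 to 6, with 935, 853, 1220, 438 and 834 CPM there. Without set 6 the Il1rl1 difference was 1.34 on the log2 scale in place of 1.97.

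Other cells of the tumor also carry Areg and Il1rl1. The background cells had 561 CPM of Areg and 1095 CPM of Il1rl1. Thinned to 1000 UMIs, 27.1% of them had an Areg UMI and 41.7% an Il1rl1 UMI, next to 46.9% and 50.0% of 32 Cd4-positive members, 2.33% and 5.81% of 86 CD8 T cells, and 0% and 9.47% of 95 NK cells. The 0% for Areg allows up to 3.16% of NK cells with a UMI at that depth (3 of 95), and unthinned 4.12% had one. Areg was also in 28% of 25 gamma-delta members so thinned. The part of free RNA in these levels was not tested. Il5 and Il13 were nearly absent from the background, with 3 and 13 UMIs in 8031 cells. With no upper limit on UMIs, which added 24 cells, the Areg difference was 1.90 on the log2 scale in place of 3.92, and that of Il1rl1 was -0.21 in place of 1.97.

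**Figure D3:**
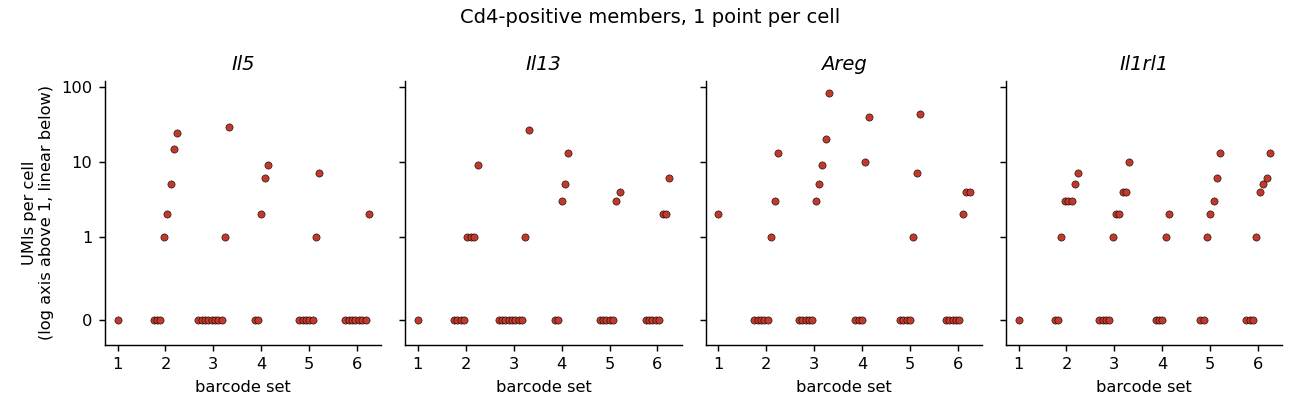
UMIs of Il5, Il13, Areg and Il1rl1 in each of the 39 Cd4-positive members by barcode set (axis logarithmic above 1 and linear below). Il5 is in 13 cells and Il13 in 14, spread over sets 2 to 6, with up to 29 and 27 UMIs in a cell.

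All 17 Cd4-positive members with Il5 or Il13 also had Il1rl1 or Gata3, and 10 of them had both cytokines. The 250 bases before the start sites of these 3 genes are therefore shown, from RefSeq on GRCm38.p6, 5′ to 3′ in the direction of the gene. Capitals mark GATA motifs on either strand, which are AGATAA or AGATAG, and, with the other base in front, TGATAA or TGATAG. Il5 is at chr11:53720544-53720793 on the plus strand, with 1 motif whose first base is 72 bases before the start. Il13 is at chr11:53634703-53634952 on the minus strand, with 1 motif at 81 bases. The upstream start of Il1rl1 is at chr1:40429320-40429569 on the plus strand, with 5 motifs. Its other start, at chr1:40439379-40439628 and not shown, has 1 motif, and which start these cells use was not measured.
Il5: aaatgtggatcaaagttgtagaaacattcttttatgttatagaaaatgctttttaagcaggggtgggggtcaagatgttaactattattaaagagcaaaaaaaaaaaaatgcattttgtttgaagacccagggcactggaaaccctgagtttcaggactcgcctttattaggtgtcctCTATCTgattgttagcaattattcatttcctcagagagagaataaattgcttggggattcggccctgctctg
Il13: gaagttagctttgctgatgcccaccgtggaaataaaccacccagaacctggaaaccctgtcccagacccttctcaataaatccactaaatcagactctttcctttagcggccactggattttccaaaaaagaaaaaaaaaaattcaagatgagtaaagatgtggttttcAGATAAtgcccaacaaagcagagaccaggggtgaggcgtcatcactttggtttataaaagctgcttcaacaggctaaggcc
Il1rl1: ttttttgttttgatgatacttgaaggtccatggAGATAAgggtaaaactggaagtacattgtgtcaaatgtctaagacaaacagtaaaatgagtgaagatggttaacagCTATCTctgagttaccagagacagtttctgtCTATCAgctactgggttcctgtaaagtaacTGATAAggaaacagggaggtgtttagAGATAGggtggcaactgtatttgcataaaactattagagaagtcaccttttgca
Of 32536 such windows over all genes, 26.5% held at least 1 of these motifs and 1.28% held 3 or more. The windows of Areg, Gata3, Tnfsf11, Ly6c2, Fcer1g, Xcl1 and Nkg7 held none. That of Rora held 1, and those of Il4 held 1 and 0. A match is a run of letters and no measure of binding.

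Tnfsf11, Hdc and Ramp1 were among the genes of largest fold in the Cd4-positive members. Tnfsf11, the cytokine RANKL, was at 648 CPM against 68.4 CPM, 9.47-fold (5.70 to 16.2). Hdc, the enzyme that makes histamine, was at 748 CPM against 86.3 CPM, 8.67-fold (5.48 to 14.0), and lay in 10 cells. Ramp1, a subunit of the receptor for the neuropeptide CGRP, was at 374 CPM against 23.8 CPM, 15.7-fold (7.04 to 39.7). Each of these was higher in 5 sets and lower in none.

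Receptors and regulators followed the same order. Il1r2, the decoy receptor for IL-1, was at 486 CPM in Cd4-positive against 20.8 CPM in Cd4-negative members, 23.3-fold (10.3 to 61.9), in 4 sets. Tnfsf8, the ligand of CD30, differed 5.00-fold (2.87 to 8.76), the chemokine receptor Cxcr6 3.96-fold (2.40 to 6.51; higher in 4 sets and lower in 2), and the IL-7 receptor chain Il7r 3.22-fold (2.08 to 4.96). Rora, a nuclear receptor of type 2 and type 3 lymphocytes, was at 1408 CPM (1161 to 1693) against 571 CPM (493 to 658), higher in all 6 sets. Of 14 measured activation and costimulation genes 6 were higher, among them Icos, Tnfrsf4, Tnfrsf9 and Tnfrsf18, and 2 were lower, Nr4a2 and Il2rb. Il10, an inhibitory cytokine, was at 174 CPM (174.5; 95.4 to 293) in Cd4-positive members, from 14 UMIs in 4 cells.

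Genes of the other helper lists were fewer or mixed. Of the type 3 list 2 genes had enough UMIs and both, Maf and Rora, were higher in Cd4-positive members, and 12 of its 17 genes in the matrix had no UMI there. Maf, a factor of several helper lineages, was at 499 CPM (356 to 679) in Cd4-positive and 161 CPM (121 to 210) in Cd4-negative members. Of 9 measured type 1 genes 3 were higher (Il18r1, Il18rap and Cxcr6) and 3 lower (Ifng, Ccl5 and Ly6c2), with a median of -0.01 on the log2 scale. The follicular helper genes Cxcr5 and Il21 had no UMI in any of the 216 members. Il17a had none in Cd4-positive members, and Zbtb16, a factor of invariant NKT cells, had none in any member. Ifng, the type 1 cytokine, had 3 UMIs in Cd4-positive members and stood at 190 CPM (147 to 243) in Cd4-negative ones.

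The Cd4-negative members showed transcripts of innate-like T cells, part of which were also in CD8 T cells. Ikzf2 (chromosome 1, 69531214 to 69687245), the factor Helios, was at 1080 CPM (972 to 1197) in Cd4-negative and 112 CPM (51.3 to 213) in Cd4-positive members, and was in 98 of 150 and in 4 of 39 cells. Ikzf2 is also in the list of regulatory T cell genes. The members as a whole were 2-fold or more lower in it than the cells left out as regulatory. Fcer1g (chromosome 1, 171229572 to 171234365), the adaptor FcRγ, was at 681 CPM (596 to 775), against 3 UMIs in Cd4-positive members, a ratio of 18.2 (6.16 to 89.0). Ly6c2 (chromosome 15, 75108158 to 75111970), a surface protein of effector and memory lymphocytes, was at 1118 CPM (1008 to 1237) and 62.3 CPM (20.2 to 145). It was in 84 of 150 Cd4-negative members and in 1 of 39 Cd4-positive ones. Both Ikzf2 and Fcer1g were in 48 of the Cd4-negative members. Of 90 T cells with a Cd8a or Cd8b1 UMI, Ly6c2 was in 52, Fcer1g in 13, and both Ikzf2 and Fcer1g in 6. Cells of the CD8 lineage with no Cd8a or Cd8b1 UMI captured can be among the Cd4-negative members. The number of such cells was not tested.

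Chemokines of killer lymphocytes were among the largest differences. Ccl5 was at 1892 CPM (1748 to 2045) in Cd4-negative and 99.7 CPM (43.05 to 196) in Cd4-positive members, 19.0-fold. By set, the Cd4-negative levels of Ccl5 were 290.4, 1899, 2897, 1294, 1306 and 2207 CPM, each above the Cd4-positive level of its set, the highest of which was 251 CPM. Xcl1 (chromosome 1, 164931644 to 164935527), which attracts cross-presenting dendritic cells, was at 761 CPM (671 to 861), with no UMI in the Cd4-positive members. That is at least 20.4-fold lower in the latter. Xcl1 was present in Cd4-negative members of all 6 sets, from 194 to 1018 CPM with a median of 632.

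NK receptors and granule genes were also higher in the Cd4-negative members. Klrd1, the NK receptor chain CD94, was at 503 CPM (430 to 584) in Cd4-negative members and was in 67 of 150 cells. Nkg7, a granule membrane protein, was at 592 CPM (513 to 680). The granzyme Gzmb had 479 CPM (408 to 559) and Gzma 283 CPM (229 to 345), neither with a UMI in Cd4-positive members, and Gzma lay in 16 of the 150 cells. Klra7, an NK inhibitory receptor of the Ly49 family, was at 238 CPM and in 41 cells.

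Part of the naive and central memory list was also higher in Cd4-negative members. Of its 10 measured genes 6 were lower in Cd4-positive members, among them Txk, Klf2 and Tcf7. Klf2, a factor of recirculating cells, was at 294 CPM (239 to 359) against 3 UMIs. Tcf7, the stem and memory factor TCF1, was at 211 CPM (165 to 266) against 2 UMIs, and Txk, a kinase of T and NK cells, at 402 CPM (337 to 475) against 87.3 CPM. Il7r was the 1 gene of this list that was higher in Cd4-positive members.

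Some of these differences rested on the UMI limit or on 1 set. With no upper limit on UMIs the differences of Fcer1g and Gzma were under 2-fold, at -0.54 and -0.03 on the log2 scale in place of -4.19 and -2.92. With Foxp3, Ctla4 and Il2ra all at 0, which left 9 Cd4-positive members, Gzma, Ifng, Klf2 and Tcf7 were at -0.52, -0.23, -0.82 and -0.23. These genes had at most 3 UMIs over all Cd4-positive members, so in the 9 cells each stood at the floor of 3 UMIs. That floor lies within 2-fold of their Cd4-negative levels, so these values cannot show whether the differences depend on the exclusion of regulatory cells. Without set 3 the difference of Ccl5 was -5.13 in place of -4.25, of Ifng -1.39 in place of -2.35, and of Klf2 -1.87 in place of -2.98. Without set 6 that of Ly6c2 was -3.21 in place of -4.17, of Fcer1g -3.54, and of Tcf7 -1.88 in place of -2.50.

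The NK cells of the same pool were 97 cells with Ncr1 and at most 1 of the 5 T cell genes. Several genes differed between them and these Cd4-negative members. Cd3e was at 2.78 CPM in NK cells and at 366 CPM in the Cd4-negative members, by the rule. Outside the rule, Gzma was at 4806 CPM in NK cells against 283 CPM, Prf1 at 972 against 32.7 CPM, Tyrobp at 1373 against 161 CPM and Klrb1c at 217 against 32.7 CPM. Ccl5 and Ly6c2 were lower in NK cells, at 301 and 387 CPM. When members with Klrb1c or Klre1 were also left out, 162 members remained, all 39 Cd4-positive ones among them, and the share of Cd4-positive members was 24.1%.

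Detection of both kinds of gene was then counted cell by cell. Genes for this count were chosen after their values, and so their opposite direction, were seen: Il5, Il13, Areg, Il1rl1 and Gata3 for the type 2 side, and Ccl5, Ly6c2, Klrd1, Fcer1g, Xcl1 and Nkg7 for the innate side. At least 3 type 2 genes were detected in 26 members, of which 17 were Cd4-positive, 9 Cd4-negative and 0 gamma-delta. At least 3 innate genes were detected in 111 members, of which 1 was Cd4-positive, 88 Cd4-negative and 22 gamma-delta. No member had 3 of both, which allows a share of up to 1.39% with such a detection (3 of 216 members, for counting error only) and does not bear on transcripts that were not captured. At lower numbers both kinds were found together: 41 members had at least 3 innate genes with at least 1 type 2 gene, 6 of them with 2. The 79 members with under 3 of both were shallower, with a median of 1311 UMIs, against 2131 and 2327 in the other two kinds of cell.

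**Figure D4:**
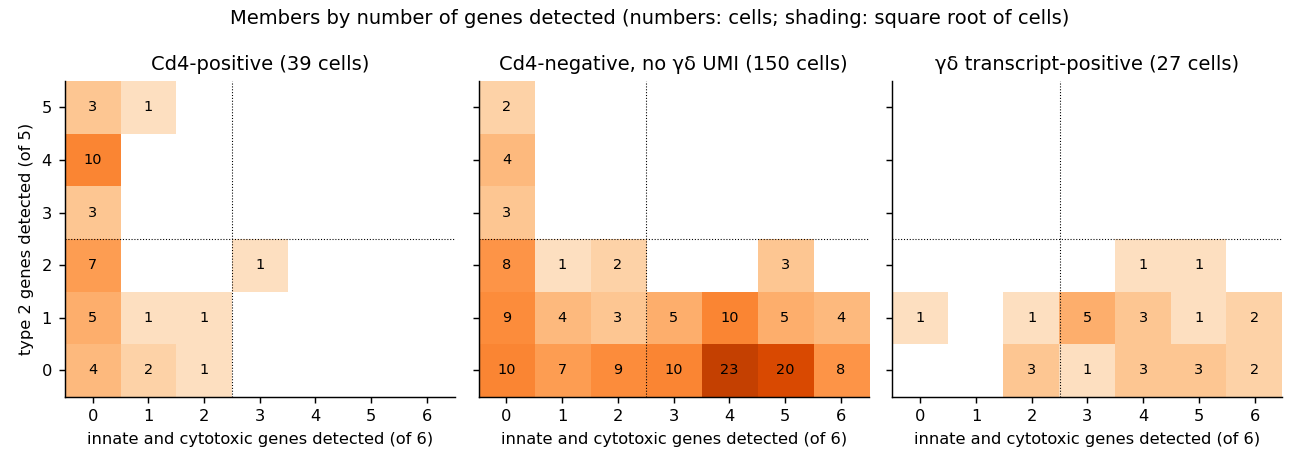
Number of type 2 genes (vertical, of 5) and of innate and cytotoxic genes (horizontal, of 6) detected in each member, as counts of cells for the 3 subsets. Some cells have 1 or 2 genes of one kind with 3 or more of the other, and the upper right field with 3 or more of both is empty in each subset.

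The type 2 members came from several barcode sets. Among Cd4-positive members with at least 3 type 2 genes, 5 were in set 2, 4 in set 3, 3 in set 4, 2 in set 5 and 3 in set 6. The Cd4-negative members with at least 3 innate genes numbered 2, 18, 10, 8, 10 and 40 in sets 1 to 6. In CD8 T cells 70 of 90 had at least 3 innate genes and none had 3 type 2 genes.

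Cells with type 2 transcripts were also found just outside the rule. Of 86 cells gated out as regulatory, 33 had a Foxp3 UMI and 53 had Ctla4 and Il2ra without Foxp3. In those 53 cells Il5 was at 724 CPM (580.3 to 894) in 16 cells and Il13 at 833 CPM (678 to 1013) in 17 cells, and 22 cells had at least 3 type 2 genes. In the 33 Foxp3-positive cells neither cytokine had a UMI, Areg was at 609 CPM and Il1rl1 at 729 CPM, and 5 cells had 3 type 2 genes. The number of type 2 cells among the members changed with the exclusion of regulatory cells. With Foxp3 alone required to be 0, 269 cells were members and 29 of 60 Cd4-positive ones had 3 type 2 genes. With Foxp3, Ctla4 and Il2ra all at 0, 125 members remained with 9 Cd4-positive ones, 2 of them with 3 type 2 genes, and Il5, Il13 and Areg stood at 171, 57.0 and 228 CPM in these 9 cells.

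**Figure D5:**
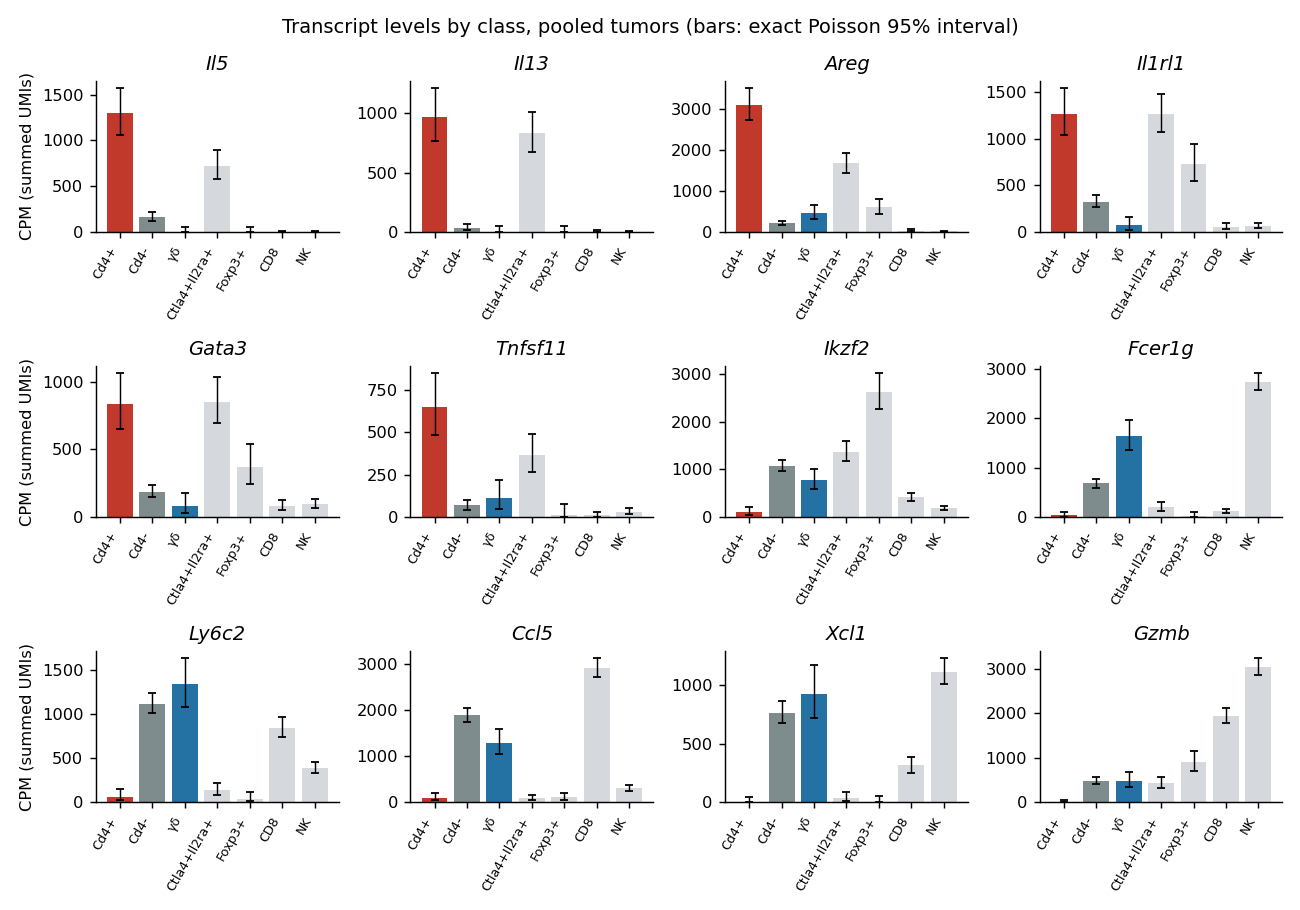
CPM of 12 genes in the 3 subsets of members (colored) and in the cells gated out by Ctla4 and Il2ra, Foxp3-positive cells, CD8 T cells and NK cells (light gray), with exact 95% intervals. Il5 and Il13 are confined to Cd4-positive members, Cd4-negative members at lower levels and the Ctla4 and Il2ra cells among these classes, and Xcl1, Fcer1g and Ccl5 are high in the other members and in CD8 T or NK cells.

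The gamma-delta members also carried NK receptor, adaptor and granule genes. Of the 27 cells, 10 had Trdc alone, 4 Tcrg-C1 alone and 13 both, at 827 and 400 CPM (399.9 before rounding). A Trdc UMI was also in 3.21% of background cells at their greater depth. Thinned to 1000 UMIs, Trdc or Tcrg-C1 was in 8.33% of members and 0.487% of background cells. Trac, the alpha chain, stood at 179 CPM (95.4 to 307) in them, Trbc2 at 345 CPM, and Cd5 had no UMI.

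Of 2701 genes measured in gamma-delta against all other members, 4.89% were higher and 9.18% lower, and the median was -0.01 on the log2 scale. In the cytotoxicity list 6 of 10 genes were higher and none lower. Nkg7 was at 1131 CPM (899 to 1403) against 490 CPM (489.9), 2.31-fold (1.76 to 3.00), and the receptor Klrc1 2.20-fold (1.40 to 3.36). Gzma and Gzmc belong to these 6, but 60 of 72 Gzma UMIs and 29 of 31 Gzmc UMIs were in 1 cell each, and Gzma without its cell was at 180 CPM. Fcer1g was at 1641 CPM (1359 to 1964) and in 19 of 27 cells.

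Of the 5 measured type 2 genes 4 were lower in gamma-delta members. Areg was not among them, with 34 UMIs in 7 cells or 469 CPM (325 to 655), of which 26 UMIs were in set 3. Il5 and Il13 had no UMI, at least 9.23-fold and 5.22-fold lower than in the other members, and Il1rl1 was at 68.9 CPM against 507 CPM. Rora was at 124 CPM against 732 CPM. Il17a, the product of a known gamma-delta lineage, gave 10 UMIs, all in 1 cell. Ptpn1, a phosphatase that dampens cytokine signalling, had the largest fold among the named genes that were higher, at 414 CPM against 103 CPM (4.01-fold, 2.43 to 6.54). Without set 6, where 15 of these cells lay, 218 genes were at 2-fold or more in place of 380. With fewer cells fewer genes reach 30 UMIs, so these counts are not shares of the same number of genes.

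Against CD8 T cells (90 cells chosen by the same rule with a Cd8a or Cd8b1 UMI), the members had more type 2 and memory transcripts and fewer of killing, dysfunction and division. Of 3815 genes, 10.2% were higher and 5.45% lower in members, with a median of -0.00 on the log2 scale. All 5 measured type 2 genes were higher. Il5 and Il13 had no UMI in CD8 T cells, so they were at least 29.6-fold and 16.8-fold higher in members, and Areg was at 720 CPM (719.9) against 29.3 CPM. Of 12 naive and memory genes 7 were higher, among them Klf2, Il7r and Bach2. Transcripts of other cell types were higher in members too. These were all 5 measured genes of a carcinoma and stroma list, all 5 of an antigen presentation list and 2 of 2 of a myeloid list. Their medians were 3.59, 3.38 and 2.99 on the log2 scale.

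The lower genes of that comparison included genes of killing, dysfunction and division. Of 14 cytotoxicity genes 9 were lower and 1, Gzmc, was higher. Gzmb was at 401 CPM against 1946 CPM, 4.85-fold lower (4.11 to 5.75), and Gzmf at 36.8 against 391 CPM. Of 8 checkpoint and dysfunction genes 5 were lower: Pdcd1, Cd160, Tox, Lag3 and Havcr2. Havcr2, which encodes TIM-3, was at 12.3 CPM against 113 CPM, 9.24-fold lower (3.80 to 27.1). Of 14 cell cycle genes 12 were lower, for instance Mki67 at 51.1 against 150.0 CPM and Top2a at 121 against 351 CPM.

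Against the 86 cells gated out as regulatory, the members had more cytotoxic and chemokine transcripts and fewer of Tnfrsf4, Klrg1 and Batf. Of the gated-out cells 53 had no Foxp3 UMI, and 22 of these 53 had at least 3 type 2 genes. Of 3583 genes, 7.62% were higher and 6% lower, with a median of -0.05. In the cytotoxicity list 9 of 10 genes were higher and none lower. Xcl1 was at 661 CPM against 20.5 CPM, 32.3-fold (12.5 to 119), Ccl5 at 1509 against 92.0 CPM, 16.4-fold (10.3 to 27.8), and Tcf7 had no UMI in the gated-out cells. Tnfrsf4, the costimulatory receptor OX40, was at 121 against 987 CPM, 8.18-fold lower (6.08 to 11.1). The receptor Klrg1 was at 8.18 against 138 CPM and the factor Batf at 24.5 against 148 CPM. Of 6 measured type 2 genes 4 were lower in members: Il1rl1, Gata3, Klrg1 and Il13.

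Against NK cells, 11.8% of 4068 genes were higher and 4.08% lower in members, with a median of 0.13. All 5 measured type 2 genes were higher, and Areg stood at 720 CPM (719.9) against 11.1 CPM, 64.6-fold (25.02 to 239). Of 16 T cell identity genes outside the rule 8 were higher, among them Bcl11b, Cd5, Cd6 and Themis. Of 13 cytotoxicity genes 11 were lower: Prf1, perforin, was at 45.0 against 972 CPM, 21.6-fold lower (14.0 to 34.9), and Gzmc at 174 against 4614 CPM, 26.5-fold lower (21.3 to 33.4). Median depths differed, with 3427 UMIs in NK cells, 2527 in CD8 T cells, 1826 in the gated-out cells and 1750.5 in members.

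Transcripts of other cell types moved with some of these groups. The carcinoma and stroma list (12 genes) summed to 5783 CPM in Cd4-positive, 2035 in Cd4-negative and 290 CPM (289.6) in gamma-delta members, next to 208 CPM in CD8 T cells and 8650 CPM (8650.5) in the background cells. In Cd4-positive members 419 of its 464 UMIs were in 1 cell of set 2, which also had 24 Il5 and 9 Il13 UMIs. Without the highest cell Col1a1 was at 41.1 CPM in that subset in place of 1982 CPM. The myeloid list (12 genes) was at 1807, 2933 and 2192 CPM in the 3 subsets and 406 CPM in CD8 T cells, and came mostly from Cxcl2 and Spp1, with Csf1r, Adgre1 and Lyz2 at 0 in Cd4-positive members. The part of these transcripts in the differences was not tested.

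The antigen presentation, B and dendritic list (12 genes) was at 74.8, 803 and 193 CPM, and 213 of its 270 UMIs in Cd4-negative members were in 1 cell. Cd79a had no UMI in any member. Of the mast cell and basophil list (7 genes) 4 had no UMI in any member, and Mcpt8, Ms4a2 and Gata2 are among them. The rest of the list was detected in members, Kit included. The part of such cells in the Hdc and Il13 levels was not tested. With cells of at least 5 UMIs of Col1a1, Col3a1 and Xist left out, 205 members and 37 Cd4-positive ones remained, 16 of them with at least 3 type 2 genes. With a doublet score of at least 0.25 left out, 205 and 38 remained, 17 of them with at least 3 type 2 genes.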

How the data were processed

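The deposited values are UMI counts, in a single matrix of 32285 genes, 12 multiplexing tags and 14818 cells. Per the file headers Cell Ranger 7.0.0 made the counts, while the submitters' processing notes name Cell Ranger 7.1, Seurat and mm10. Filters on cells before deposit are not given in the sources used here. The members and the 23 gene lists (311 genes, 309 in the matrix) were chosen with earlier results of these data known.

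Counts were summed over the cells of a class and scaled to the class total (python 3.11.15, numpy 2.4.6, scipy 1.17.1, pandas 2.3.3). Member totals ran from 731 to 7665 UMIs, and the intervals hold no spread between tumors. Named genes were the 12 with the largest fold in each direction on the same side in at least 5 of 6 barcode sets, and members of the lists. Doublet scores came from scrublet in scanpy 1.11.5, per barcode set, at an expected rate of 6%, and no cell was left out for its score in the values above. CD8 and regulatory cells met the rule of the members apart from the gene that names them. NK cells had at most 1 T cell gene. Shares of cells with a UMI were thinned to 1000 UMIs per cell. The fold and interval steps were tested on simulated data. Positions are from GENCODE M21, matched by gene ID, and promoters from RefSeq on GRCm38.p6. Alternatives were other filters on cells, UMIs and T cell genes, other exclusions of regulatory, NK-like and doublet cells, other minimum counts per gene, equal weight per cell, thinning and each barcode set left out. Leaving out cells with stromal UMIs and asking only for Foxp3 at 0 were added after seeing the data.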

Additional observations from a re-analysis of the deposited data

How the results depend on the processing

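No paired analysis was possible because neither the matrix nor its barcodes carry the replicate numbers of the labels. The members' share of 1.57% was 0.808% when cells needed 1000 genes and under 10% mitochondrial UMIs, 1.07% with at least 3 T cell genes, 0.908% with Foxp3, Ctla4 and Il2ra all at 0, 1.95% with only Foxp3 at 0, and 1.18% with Klrb1c and Klre1 also at 0. The share with a Cd4 UMI (18.1%) was 7.2%, 24.1% and 9.90% with all 3 regulatory genes at 0, with Klrb1c and Klre1 at 0, and thinned, and the share with Trdc or Tcrg-C1 (12.5%) was 8.33% thinned.

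Genes at 2-fold or more numbered 489 between Cd4-positive and Cd4-negative members, 380 for gamma-delta members, 597 against CD8, 488 against regulatory and 645 against NK cells. The number of genes with enough UMIs changes with the setting and is not given for the alternatives. The counts here and below therefore cannot be read as shares. With no minimum of UMIs they numbered 2602, 3077, 1886, 1397 and 1947, and with at least 100 UMIs 98, 56, 152, 123 and 165. At most 4000 UMIs per cell gave 253 for gamma-delta members, 324 against CD8 and 398 against NK cells. All 3 regulatory genes at 0 gave 197 for the Cd4 comparison and 251 for gamma-delta members, and Klrb1c and Klre1 at 0 gave 261 for the former.

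Leaving out each barcode set gave members' shares from 1.18% to 1.94%, Cd4 shares from 16.6% to 21.2%, gamma-delta shares from 8.22% to 14.5%, and counts from 292 to 455, 218 to 386, 456 to 589, 344 to 467 and 515 to 647 in the order above. The lowest 1.18%, 8.22%, 292 and 218 are those without set 6. The Il1rl1 difference between Cd4-positive and Cd4-negative members changed sign with no upper limit on UMIs, to -0.21 on the log2 scale, where the added cells are deeper. The cause was not tested. Over all alternatives the log2 differences ran from 1.89 to 4.87 for Il5, 1.95 to 6.66 for Il13, 1.00 to 5.29 for Areg and 1.57 to 3.00 for Gata3.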

Other observations

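Immediate-early and heat shock genes, which cells make during stress and dissociation as well as on stimulation, summed to 15617 CPM over 15 genes in the members. This compares with 9886 CPM in CD8 T cells, 10160.1 CPM in the gated-out regulatory cells and 12001 CPM in NK cells. The 3 subsets of members were close together, at 15518, 15432 and 16588 CPM in Cd4-positive, Cd4-negative and gamma-delta members.

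Type I interferon response genes (17 in the matrix) summed to 3041 CPM (2672 to 3448) in Cd4-positive members, 2052 CPM (1902 to 2211) in Cd4-negative and 2192 CPM (1865 to 2561) in gamma-delta members. Foxp3-positive cells were higher, at 4557 CPM, and CD8 T cells lower, at 1357 CPM.

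The cell cycle list (18 genes) was at 1184 CPM in Cd4-positive, 1981 CPM in Cd4-negative and 3447 CPM in gamma-delta members, against 5589 CPM in CD8 T cells.

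Variable segments of the T cell receptors were nearly unread. The members gave 5 UMIs over 128 Trav genes, 12 UMIs over 35 Trbv genes, 12 UMIs of Trdv4 and 4 of Trgv2. Of the Trdv4 UMIs 11 were in gamma-delta members and 1 in a Cd4-negative member. The 4 Trgv2 UMIs were all in Cd4-negative members and 0 in gamma-delta members, and CD8 T cells had 9. The number of clones among the members cannot be read from these counts.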
